A study of Homo sapiens with 6 samples.

Results

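The genes described are 10 nuclear genes whose proteins keep, copy and transcribe the mitochondrial genome or hold on to its messengers: POLRMT, TFAM, TFB2M, TFB1M, TEFM, LRPPRC, SLIRP, POLG, POLG2 and SSBP1. They were chosen by name, and all 10 of them were found by gene symbol among the 58051 genes of the table. The cells were MDA-MB-231, a long-established line from a human breast cancer, wild type in genotype per the labels. They had been stained with FITC-conjugated recombinant human FABP4, a fatty acid carrier protein, and sorted by flow cytometry. The FABP4 binding and the FABP4 non-binding cells gave 3 libraries each, both passing through the same stain and sort, and total RNA was sequenced after ribosomal RNA depletion and random priming. Values are TPM, a transcript abundance corrected for length and for the total of the library, so levels of different genes may be set side by side. Nothing in the labels tells whether the replicates were cultured or sorted apart, so the p-values cover only the spread among the 6 libraries, which may be technical.

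Mitochondria hold their own small circular genome, with genes for respiratory chain subunits and for the RNA of its own ribosomes. Everything needed to read and copy it is made from nuclear genes and imported. The RNA polymerase POLRMT starts transcription together with TFAM, which also packs the DNA into nucleoids, and TFB2M, which opens the promoter. TEFM keeps the polymerase elongating, LRPPRC and its small partner SLIRP bind and stabilise the mitochondrial messengers, and TFB1M methylates the small ribosomal RNA. The replicative DNA polymerase joins the catalytic subunit POLG with the accessory subunit POLG2, and SSBP1 coats the single-stranded DNA exposed at the fork. Nuclear respiratory factor 1 (NRF1), ETS family factors such as GABPA, and SP1 are the textbook activators of several of these genes.

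The promoters were read for the core letters of those activators, on both strands of the 250 bases before each RefSeq start (GRCh38.p14), to show what the sequences of the 10 genes share. The NRF1 core (GCGCA, then any base, then GCGC) stood before 4 of the 10 genes (POLRMT, POLG2, TFAM and TFB1M), against 5.07% of the 35116 start windows of the RefSeq table. The ETS core CCGGAAG stood before 5 of the 10, against 8.52% of windows, and the SP1 core GGGCGG before 7, against 42.6%. The 10 genes have 13 start windows, since SSBP1 and SLIRP have several, and a gene was counted if any of its windows held the letters. Counted by window, as the shares of the RefSeq table are, the NRF1 core stood in 4 of the 13. The ETS core stood in 6 and the SP1 core in 8, and some windows of SSBP1 and SLIRP overlap. Within the windows holding the NRF1 core, the 150 bases nearest the start are shown 5′ to 3′ on the strand of the gene, with the NRF1 core in capitals. In POLRMT (chr19:633538-633687, minus strand) there are 2 overlapping copies, the nearer ending 9 bases before the start. In POLG2 (chr17:64497055-64497204, minus strand) the core ends 5 bases before the start, in TFAM (chr10:58385260-58385409, plus strand) 54 bases and in TFB1M (chr6:155314485-155314634, minus strand) 123 bases before it.
POLRMT: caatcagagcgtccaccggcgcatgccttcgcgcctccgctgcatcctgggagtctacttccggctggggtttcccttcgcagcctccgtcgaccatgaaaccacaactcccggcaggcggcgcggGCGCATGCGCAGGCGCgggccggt
POLG2: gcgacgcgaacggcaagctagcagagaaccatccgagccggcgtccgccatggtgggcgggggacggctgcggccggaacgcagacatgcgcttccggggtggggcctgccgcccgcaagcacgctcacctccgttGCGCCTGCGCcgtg
TFAM: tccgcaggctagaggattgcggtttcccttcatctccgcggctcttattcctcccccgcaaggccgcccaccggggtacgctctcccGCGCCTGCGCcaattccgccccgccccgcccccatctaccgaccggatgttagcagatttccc
TFB1M: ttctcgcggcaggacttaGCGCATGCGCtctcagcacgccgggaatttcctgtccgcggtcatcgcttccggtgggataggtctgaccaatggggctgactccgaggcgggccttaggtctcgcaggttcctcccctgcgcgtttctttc
A match of letters describes the sequence and shows no binding, and a window without a match says nothing about the factor. LRPPRC and TEFM held none of the 3 cores in these windows. Of the 3 genes called higher further on, POLRMT and POLG2 hold the NRF1 core and LRPPRC does not, while TFAM and TFB1M hold it and were not called.

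TPM keep no depth, so depth is unknown and no interval for counting error is given. Per library, 15300 to 15945 genes stood at 1 TPM or more. Of 8 mesenchymal genes that MDA-MB-231 is known to express, 6 were higher in binding cells, among them AXL and LGALS1 with log2 changes of 0.98 and 0.96, and VIM and MSN did not pass. Their summed level was 4988 to 5835 TPM in the binding libraries, against 3340 to 3590 TPM in the non-binding ones. Of 8 breast epithelial and receptor genes that triple-negative lines are known to lack or hold at low levels, ESR1 was listed at 0 in every library and PGR averaged under 0.02 TPM in each group. The other 6 were detected, with group means of 3.43 TPM (CDH1, binding) to 13.3 TPM (GATA3, non-binding), and of these CDH1 was lower in binding cells. That list summed to 41.9 to 51.5 TPM in binding libraries, against 43.3 to 47.6 TPM in non-binding ones. Epidermal keratinocyte markers were present in every library. All 17 of the list were tested, and their summed level was 2393 to 3827 TPM in the binding and 4965 to 6768 TPM in non-binding libraries. Of these, 11 were lower in binding cells and none was higher. Over all tested genes, 19.6% were called higher and 7.12% lower. The part of these marker lists in the results below was not tested, and in bulk libraries fewer cells of a type and less RNA per cell cannot be told apart. Leukocyte markers summed to 27.2 to 49.99 TPM in the binding and 35.2 to 59.7 TPM in non-binding libraries, with CD3D, CD2 and MS4A1 listed at 0 in every library. Fibroblast, endothelial and adipocyte markers summed to at most 64.3 TPM in any library. Across genes, binding replicate 1 correlated with the other binding libraries at r = 0.951 and 0.953 and those with each other at 0.970, while the non-binding pairs stood at 0.951 to 0.960. Its epidermal sum was the lowest of the 6.

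All 10 genes passed the filter of 1 TPM in at least 3 libraries, and all 10 had a higher mean TPM in FABP4 binding than in non-binding cells, though POLG and TEFM turned negative under quantile normalization and under a common median. Of them, POLG2, POLRMT and LRPPRC rose, 3 of 10, and none fell (limma on log2(TPM + 1), Benjamini-Hochberg adjusted p under 0.05 over 15574 genes). Over all tested genes 26.7% were called, 19.6% higher and 7.12% lower, so 3 of 10 is near the background. In 6 of the 10 genes every binding library lay above every non-binding library, where 38.6% of tested genes did so and 13.6% lay wholly lower. The median log2 change of the 10 was 0.70, against 0.36 for all tested genes, and 7 of the 10 lay above that median and 3 below it. The calls were not stable to the loss of a library: dropping non-binding replicate 2 or 3 left 0 of the 10, when 360 and 64 genes passed in all. The plot of TPM by library shows that binding replicate 1 was the highest binding library for 9 of the 10 genes, POLG being the exception, where 56.4% of all tested genes had it highest.

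**Figure D1:**
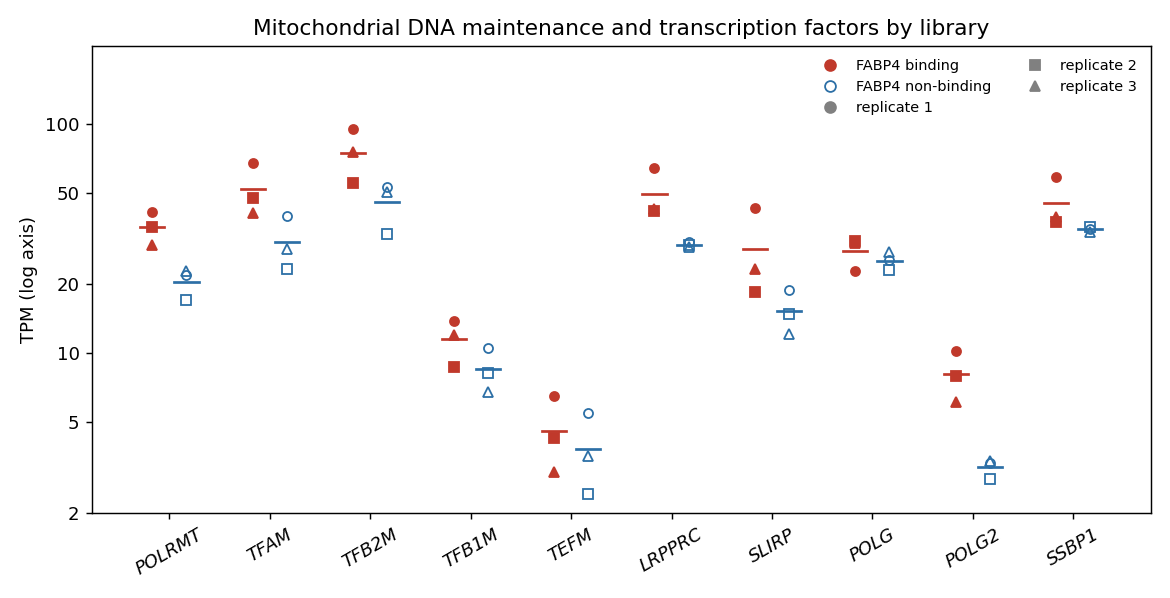
TPM of the 10 genes (log axis) in each FABP4 binding library (filled, left) and each non-binding library (open, right), with the replicate number as the symbol and the group mean as a line. POLG2 shows the widest gap, 6.11 to 10.3 TPM in binding against 2.81 to 3.39 TPM in non-binding libraries, and POLG the narrowest, with groups that overlap.

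Among the genes of transcription initiation, POLRMT, the RNA polymerase itself (ENSG00000099821, chr19:617224-633604, hg38), was higher in binding cells. It stood at 41.2, 35.6 and 29.6 TPM in binding replicates 1 to 3, against 21.8, 17.03 and 22.7 TPM in non-binding replicates 1 to 3. No non-binding library reached the lowest binding one, the means being 35.5 ± 5.76 TPM in the binding and 20.5 ± 3.07 TPM in non-binding cells (SD, n = 3 each). The log2 change was 0.76 (SE 0.19; limma, Benjamini-Hochberg adjusted p = 0.0267), or 0.40 above the median of all genes, and 19.2% of tested genes changed more. That call was lost, with the direction kept, without binding replicate 2 or without any 1 of the 3 non-binding libraries (limma, Benjamini-Hochberg adjusted p = 0.055 to 0.0797). A processed pseudogene, POLRMTP1 on chromosome 17, matches 3668 bases of the POLRMT transcript at 97.8% identity. It was listed at no more than 0.963 TPM in any library, so reads given to it are few. Another, AC005336.2 on chromosome 19, matches 937 bases at 94.8% identity. AC005336.2 was listed at 1.84 TPM in non-binding replicate 2, where POLRMT was lowest, and at 0 in the other libraries. How the authors divided shared reads was not stated.

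TFAM, the nucleoid packing protein and initiation factor (ENSG00000108064, chr10:58385022-58399221), did not pass. Its values were 67.5, 47.6 and 40.8 TPM in binding replicates 1 to 3, against 39.9, 23.3 and 28.5 TPM in non-binding replicates 1 to 3. The groups did not overlap, but the lowest binding library and the highest non-binding library differed by under 1 TPM. Group means were 52.0 ± 13.8 TPM in the binding and 30.6 ± 8.51 TPM in non-binding cells (SD, n = 3 each). The log2 change was 0.75 (SE 0.25; limma, Benjamini-Hochberg adjusted p = 0.0556), close to that of POLRMT with a larger error. A TFAM pseudogene, TFAMP1, was listed at 0 in every library.

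TFB2M, the promoter-opening factor (ENSG00000162851, chr1:246540560-246566324), was the most abundant of the 10 genes. It stood at 95.1, 55.1 and 75.3 TPM in binding replicates 1 to 3, against 53.2, 33.2 and 50.6 TPM in non-binding replicates 1 to 3. Its groups did not overlap, the lowest binding library standing under 2 TPM above the highest non-binding one, and its log2 change of 0.70 did not pass (SE 0.25; limma, Benjamini-Hochberg adjusted p = 0.0656). Replicate 2 was the lowest library in both groups. TEFM, the elongation factor (ENSG00000172171, chr17:30897336-30906820), was scarce, at 6.46, 4.25 and 3.03 TPM in the binding and 5.45, 2.41 and 3.56 TPM in non-binding replicates 1 to 3. It shares 301 bases of exon, 9.34% of its exonic length, with ADAP2 on the opposite strand, a gene with a mean of 3.63 TPM. Reads of that stretch cannot be told apart unless the counting used strand. The TEFM groups overlapped in part, the highest library being a binding and the lowest a non-binding one, and its log2 change of 0.22 was smaller than its error (SE 0.33; limma, Benjamini-Hochberg adjusted p = 0.624); with a common median it was -0.10.

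TFB1M, a paralog of TFB2M that methylates the ribosomal RNA (ENSG00000029639, chr6:155257509-155314493), stood at 13.8, 8.71 and 11.98 TPM in binding replicates 1 to 3. The non-binding values were 10.5, 8.21 and 6.78 TPM. The groups overlapped, and the log2 change of 0.39 (SE 0.24; limma, Benjamini-Hochberg adjusted p = 0.228) lay at the median of all genes. TFB2M exceeded TFB1M in every library, by 6.29 to 6.90 times in binding and 4.04 to 7.47 times in non-binding libraries, and the ranges overlapped (exact permutation test, two-sided p = 0.4).

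LRPPRC, the large messenger-binding protein (ENSG00000138095, chr2:43886508-43996005), was higher in binding cells. It stood at 64.4, 41.8 and 42.7 TPM in binding replicates 1 to 3, against 30.6, 29.6 and 29.03 TPM in non-binding replicates 1 to 3. The non-binding libraries lay within 2 TPM of each other, well below the lowest binding library. The log2 change was 0.69 (SE 0.19; limma, Benjamini-Hochberg adjusted p = 0.0349). Without binding replicate 1, the library that stands highest, it was 0.49 and still passed (limma, Benjamini-Hochberg adjusted p = 0.0281). The call was lost without binding replicate 3 or any 1 of the non-binding libraries (limma, Benjamini-Hochberg adjusted p = 0.0531 to 0.0964).

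SLIRP, the partner of LRPPRC (ENSG00000119705, chr14:77708071-77761104), stood at 43.2, 18.6 and 23.4 TPM in binding replicates 1 to 3, against 18.8, 14.8 and 12.1 TPM in non-binding replicates 1 to 3. The groups overlapped narrowly, and binding replicate 1 lay far above the rest. Its log2 change of 0.79 (SE 0.31; limma, Benjamini-Hochberg adjusted p = 0.0861) was 0.45 without that library. SLIRP shares 118 bases of exon with SNW1 on the opposite strand, a gene listed at 230 to 250 TPM in the binding and 313 to 328 TPM in non-binding libraries. Whether the counting used strand was not stated, so reads of that stretch cannot be told apart. LRPPRC over SLIRP was 1.49, 2.25 and 1.82 in binding and 1.63, 2.00 and 2.40 in non-binding replicates 1 to 3, with overlapping groups (exact permutation test, two-sided p = 0.7).

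In the replication machinery the widest difference was in POLG2, the accessory subunit of the mitochondrial DNA polymerase (ENSG00000256525, chr17:64477785-64497036). It stood at 10.3, 7.91 and 6.11 TPM in binding replicates 1 to 3, against 3.30, 2.81 and 3.39 TPM in non-binding replicates 1 to 3. Every binding library lay well above the highest non-binding one. The means of 8.09 ± 2.08 TPM in the binding and 3.17 ± 0.314 TPM in non-binding cells (SD, n = 3 each) differed 2.56-fold. The log2 change was 1.10 (SE 0.24; limma, Benjamini-Hochberg adjusted p = 0.0207), 0.75 above the median of all genes, and 3.94% of tested genes changed more. Leaving out single libraries gave 0.94 to 1.27, and the call was lost without non-binding replicate 2 or 3 (limma, Benjamini-Hochberg adjusted p = 0.0671 and 0.0609).

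POLG, the catalytic subunit (ENSG00000140521, chr15:89305198-89334861), did not pass. It stood at 22.9, 30.9 and 30.2 TPM in the binding and 25.4, 23.0 and 27.6 TPM in non-binding replicates 1 to 3. The groups overlapped, with the lowest value of all in binding replicate 1, where the other 9 genes were highest among binding libraries. The POLG log2 change was 0.13 (SE 0.17; limma, Benjamini-Hochberg adjusted p = 0.571), and -0.19 with a common median. POLG shares 458 bases of exon, 7.66% of its exonic length, with FANCI on the opposite strand. FANCI stood at 35.2, 19.9 and 16.9 TPM in binding replicates 1 to 3, all above its 13.99, 12.4 and 13.98 TPM in non-binding replicates 1 to 3, and reads of the shared stretch cannot be told apart. As a ratio chosen after the values were seen, POLG2 over POLG was 0.448, 0.256 and 0.202 in binding replicates 1 to 3, against 0.130, 0.122 and 0.123 in non-binding replicates 1 to 3. The ratio was higher in all binding libraries (two-sided p = 0.1 in an exact permutation test, which cannot go lower here). Without binding replicate 1 the log2 difference of the ratio was 0.87, against 1.19 with all libraries.

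SSBP1, the single-stranded DNA binding protein of the fork (ENSG00000106028, chr7:141738321-141787922), stood at 58.6, 37.4 and 39.3 TPM in the binding and 34.9, 35.7 and 34.0 TPM in non-binding replicates 1 to 3. The groups did not overlap, binding replicates 2 and 3 lying close above the non-binding libraries and replicate 1 far above. The log2 change of 0.33 (SE 0.19; limma, Benjamini-Hochberg adjusted p = 0.204) lay at the median of all genes and was 0.13 without binding replicate 1.

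By level, in binding cells the order of mean TPM was TFB2M, TFAM, LRPPRC, SSBP1, POLRMT, SLIRP, POLG, TFB1M, POLG2 and TEFM. Only POLG and TFB1M, among neighbours in that order, had ranges that did not overlap. In non-binding cells the order was TFB2M, SSBP1, TFAM, LRPPRC, POLG, POLRMT, SLIRP, TFB1M, TEFM and POLG2, and neighbouring ranges were apart between LRPPRC and POLG, POLG and POLRMT, SLIRP and TFB1M, and TFB1M and TEFM. POLG2 was thus the scarcest of the 10 in non-binding cells, within the range of TEFM.

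The messengers and ribosomal RNAs of the mitochondrial genome differed more than most of the 10 genes. The 13 mitochondrial mRNAs summed to 77966, 83880 and 93860 TPM in binding replicates 1 to 3, against 27182, 24095 and 23700 TPM in non-binding replicates 1 to 3, a 3.41-fold difference of the means. All 15 mRNAs and ribosomal RNAs of the mitochondrial genome rose, by 1.26 to 2.01 on the log2 scale, with MT-ND1 at 1.83, MT-CO3 at 2.01 and MT-CYB at 1.39, where the 10 nuclear factors ranged from 0.13 to 1.10 (plot of log2 changes). On that scale no factor reached the lowest of the 15. As a ratio of mean TPM, POLG2 at 2.56-fold lay above MT-RNR1 at 2.37-fold, since log2(TPM + 1) understates the change of scarce genes. The libraries were depleted of ribosomal RNA, and the part of that step in the ribosomal RNA changes was not tested. The transfer RNAs were less uniform. Of 22 listed, 19 were tested, 9 rose and none fell, where 19.6% of all tested genes were called higher and 7.12% lower. The lowest log2 change of a transfer RNA was -1.82 (MT-TS2, not passing). MT-TV and MT-TW, both called, were listed at 0 in every non-binding library and so passed the filter through the binding libraries alone. MT-TS1, also called, was listed at 0 in non-binding replicates 2 and 3. All of these are among the 9, so that count rests in part on the filter and on values of 0. Of the transfer RNAs with called changes, MT-TN at 0.97 lay below POLG2. Binding replicate 1, the library with the highest values for 9 of the 10 factors, had the lowest mitochondrial mRNA sum of the 3 binding libraries.

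**Figure D2:**
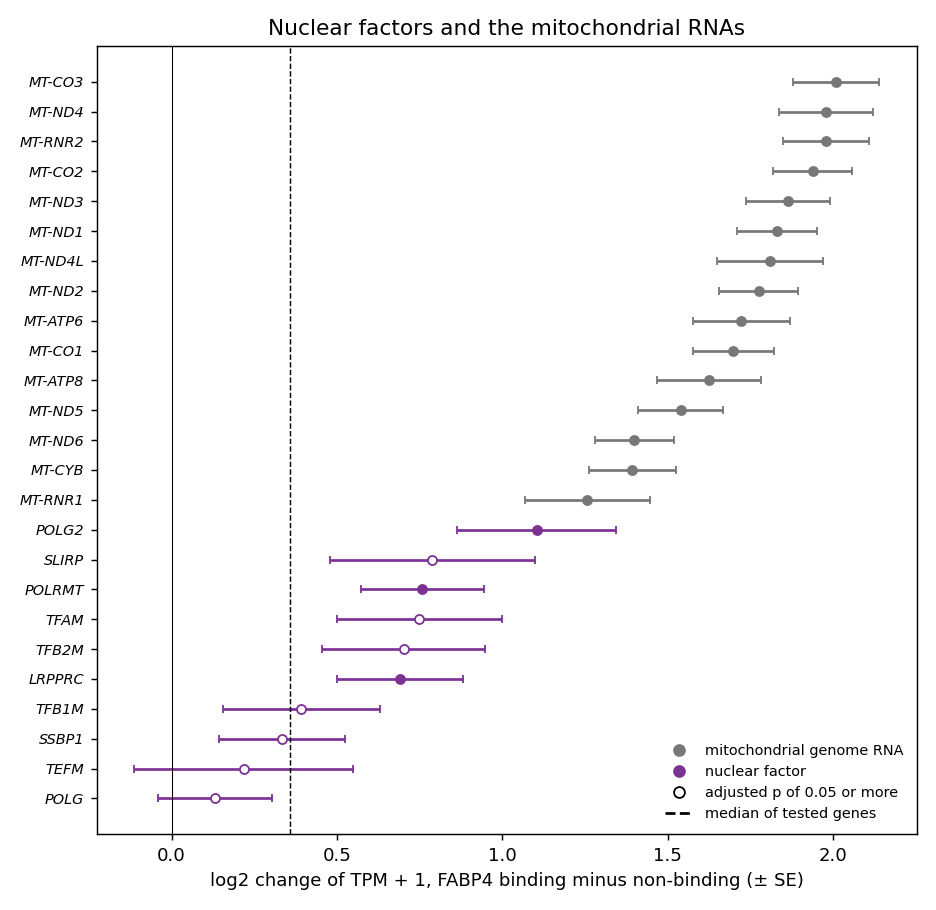
Log2 change of TPM + 1 (FABP4 binding minus non-binding, ± SE) of the 15 mitochondrial mRNAs and ribosomal RNAs (grey) and the 10 nuclear factors (purple), filled where the adjusted p was under 0.05. The mitochondrial RNAs range from 1.26 to 2.01 and the factors from 0.13 to 1.10, around the dashed median of all tested genes at 0.36.

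Set against each factor within the same library, mitochondrial mRNA was higher in binding cells for every factor on average. For each TPM of POLRMT there were 1894, 2358 and 3167 TPM of mitochondrial mRNA in binding replicates 1 to 3, against 1245, 1415 and 1042 in non-binding replicates 1 to 3. For each TPM of TFAM there were 1156, 1762 and 2299 in binding and 681, 1035 and 832 in non-binding libraries. Both ratios differed about 1 log2 unit (0.98 for POLRMT and 1.00 for TFAM), with groups that did not overlap.

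The difference was largest for POLG, at 3404, 2716 and 3108 TPM of mitochondrial mRNA per TPM in binding replicates 1 to 3, against 1071, 1049 and 859 in non-binding replicates 1 to 3, a log2 difference of 1.63. It was smallest for POLG2, at 7604, 10600.1 and 15358 in binding and 8231, 8588 and 6997 in non-binding libraries, where the groups overlapped. In 8 of the 10 ratios the groups did not overlap, SLIRP and POLG2 being the exceptions (exact permutation test, two-sided p = 0.1 for each of the 8, 0.2 and 0.3; adjusted over 10 ratios with Benjamini-Hochberg 0.125, 0.222 and 0.3). With 3 against 3 libraries none could go below 0.1. All 10 ratios share the same mitochondrial mRNA sum, which differed 3.41-fold. The median change of all tested genes, on log2(TPM + 1), came to 1.28-fold. The share of all genes whose ratio would separate the groups was not computed, so the count cannot be read as a trait of these factors. Every ratio was higher on average in binding cells, and stayed so when any 1 library was left out, in a range of log2 differences of 0.18 (POLG2) to 1.84 (TEFM). Multiplying all values of a library by a single factor leaves these ratios as they are, but quantile normalization does not.

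**Figure D3:**
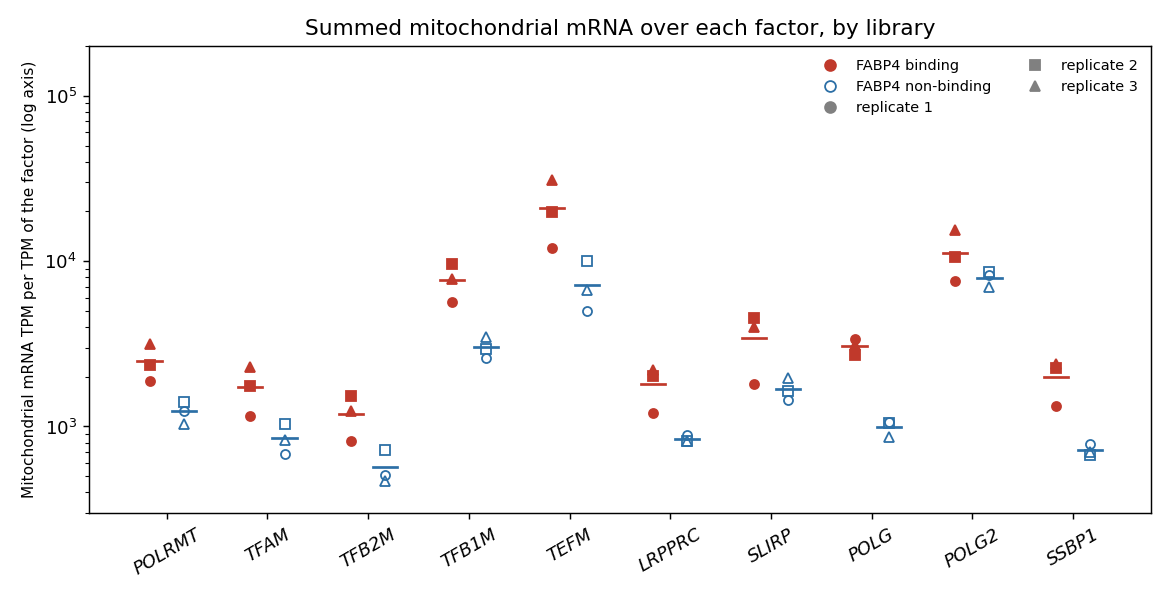
Summed TPM of the 13 mitochondrial mRNAs per TPM of each factor (log axis), by library, with FABP4 binding libraries filled and to the left, non-binding libraries open and to the right, and lines at group means. Binding libraries lie above non-binding ones for 8 of the 10 factors, and the groups overlap for SLIRP and POLG2. The share of all genes whose ratio would do so was not computed.

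The mitochondrial genome is transcribed from both strands, and MT-ND6 is the only messenger of the light strand. MT-ND6 stood at 5.03%, 4.65% and 4.59% of the summed 12 heavy-strand mRNAs in binding replicates 1 to 3, against 6.08%, 6.57% and 6.03% in non-binding replicates 1 to 3. The share was lower in all binding libraries (two-sided p = 0.1 in an exact permutation test, its lower limit), the folds being 2.64 for MT-ND6 and 3.46 for the summed heavy-strand messengers. Single heavy-strand messengers ranged from 2.64-fold (MT-CYB) to 4.04-fold (MT-CO3). A change as small as that of MT-ND6 was thus not particular to the light strand. Among the ribosomal RNAs, which are cut from the same heavy-strand precursor, MT-RNR1 changed by 1.26 and MT-RNR2 by 1.98 on the log2 scale. Ribosomal RNA was depleted before sequencing, and the part of that depletion in these values was not tested. Reads of the opposite strand cannot be told from MT-ND6 unless the counting used strand.

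How the changes are scaled altered which factors passed. The common median lowered every log2 change by the same amount. POLRMT went from 0.758 to 0.439, and the median of the 15 mitochondrial mRNAs and ribosomal RNAs from 1.775 to 1.456. With all libraries brought to the same median, POLG2 alone of the 10 passed (log2 change 0.79; limma, Benjamini-Hochberg adjusted p = 0.0373), and likewise with quantile normalization (0.83; adjusted p = 0.0351 by limma with Benjamini-Hochberg). With the common median 6.18% of all genes were called higher and 12.1% lower, and with quantile normalization 7.69% higher and 8% lower. POLG and TEFM turned negative under both, while TFB1M and SSBP1 came to 0.07 and 0.02 with the common median. When TPM were rescaled over all genes except those of the mitochondrial genome, TFAM (0.86) and TFB2M (0.81) passed as well as POLG2, POLRMT and LRPPRC, 5 of 10, where 28.4% of all genes were called higher and 5.16% lower. The same 5 passed with a filter of 5 TPM, which raised the background to 32.7% higher and 11.7% lower. All 15 mitochondrial mRNAs and ribosomal RNAs passed under quantile normalization and under a common median.

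**Figure D4:**
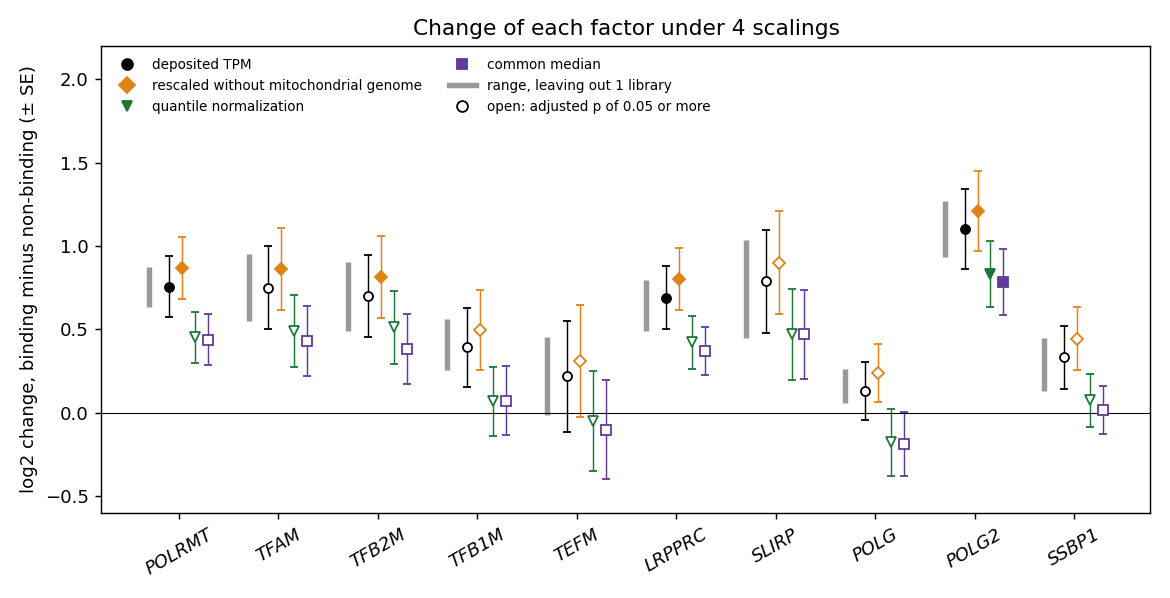
Log2 change (FABP4 binding minus non-binding, ± SE) of each factor with deposited TPM, TPM rescaled without the mitochondrial genome, quantile normalization and a common median, filled where the adjusted p was under 0.05. Grey bars give the range when 1 library is left out. POLG2 is filled under all 4 scalings, and POLG and TEFM lie below 0 under quantile normalization and the common median.

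Around the 10 factors, 83 genes of 6 further groups of the same biology were listed, of which 82 were tested. Of these, 21 (25.6%) were higher and 3 (3.66%) lower in binding cells, against 19.6% and 7.12% of all tested genes, and their median log2 change was 0.44. None of the 82 passed when either non-binding replicate 2 or 3 was left out. Leaving out any other single library left 4 to 10 higher and at most 3 lower. Quantile normalization left 4 higher and 2 lower, where 7.69% and 8% of all genes were called so, and the common median 3 and 6, against 6.18% and 12.1%. TPM rescaled without the mitochondrial genome gave 29 higher and 2 lower, against 28.4% and 5.16%.

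**Figure D5:**
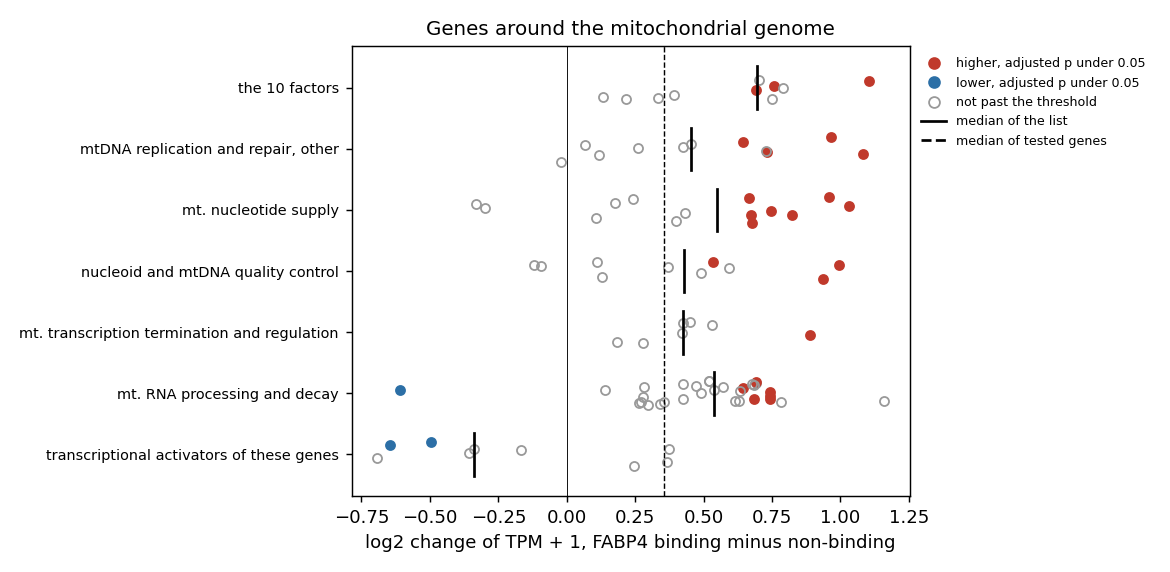
Log2 change (FABP4 binding minus non-binding) of each tested gene in the 6 groups and in the 10 factors (top), coloured by the call, with the median of each group as a bar and that of all tested genes dashed. The activators have a median of -0.34, and the other groups lie between 0.42 and 0.70.

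Of the 11 other replication and repair genes, 4 rose, none fell and 7 did not pass. TWNK, the replicative helicase, stood at 75.3, 68.3 and 67.1 TPM in the binding and 49.2, 30.1 and 49.3 TPM in non-binding replicates 1 to 3. TOP3A, a topoisomerase that separates finished circles, stood at 39.0, 28.2 and 25.5 TPM in the binding and 13.8, 13.9 and 17.9 TPM in non-binding replicates 1 to 3. It changed by 0.96 on the log2 scale, and also passed under quantile normalization or a common median. The other members that rose were TOP1MT, a topoisomerase, and EXOG, a nuclease, with log2 changes of 0.64 and 1.08. EXOG was scarce, at 3.71, 2.17 and 2.75 TPM in the binding and 0.918, 0.827 and 0.676 TPM in non-binding replicates 1 to 3. It thus met the filter of 1 TPM through the binding libraries alone, which limits what its call can show. That call was lost under quantile normalization, under a common median and whichever single library was left out. Members that did not pass were MGME1, FEN1, RNASEH1, PRIMPOL, LIG3, DNA2 and POLB, with log2 changes of -0.02 (POLB) to 0.73 (MGME1).

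Genes that supply nucleotides to mitochondria included 7 that rose, none that fell and 7 that did not pass, of 14. DGUOK and TK2, the deoxynucleoside kinases of the matrix, averaged 135 ± 28.0 and 8.32 ± 1.54 TPM in binding cells, against 75.4 ± 10.7 and 3.79 ± 0.816 TPM in non-binding cells (SD, n = 3 each). MPV17, an inner membrane protein, also rose, with a log2 change of 0.75. In the group of nucleoid and quality control proteins, LONP1, the matrix protease that degrades unbound TFAM, stood at 332, 219 and 212 TPM in the binding and 124, 120.3 and 129 TPM in non-binding replicates 1 to 3. Its log2 change was 0.99 (SE 0.18; limma, Benjamini-Hochberg adjusted p = 0.0156). CLPP, another matrix protease, and PHB1, a prohibitin, also rose, by 0.94 and 0.53 on the log2 scale, and 7 of the 10 did not pass: PHB2, ATAD3A, DNAJA3, HSPD1, ATAD3B, CLPX and HSPA9, with values of -0.12 (CLPX) to 0.59 (ATAD3A).

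Among 31 genes of mitochondrial RNA processing, modification and decay, 6 rose, 1 fell and 24 did not pass. SUPV3L1, the helicase of the RNA-degrading complex, and GTPBP3, a transfer RNA modifying enzyme, both changed by 0.74 on the log2 scale. TRMT10C, a subunit of the enzyme that trims transfer RNA ends, changed by 0.64. REXO2, which clears the short fragments that decay leaves, fell to 139, 198 and 175 TPM in binding replicates 1 to 3, against 260.3, 255 and 258 TPM in non-binding replicates 1 to 3. Its log2 change was -0.61 (SE 0.15; limma, Benjamini-Hochberg adjusted p = 0.0273). This call was lost with quantile normalization, without a filter and without an intensity trend (limma, Benjamini-Hochberg adjusted p = 0.0587, 0.0530 and 0.0600). It was also lost without binding replicate 3 or any 1 of the non-binding libraries. Of 7 genes of termination and regulation, MRPL12, a ribosomal protein also reported to bind POLRMT, rose, with a log2 change of 0.89. The termination factors MTERF1, MTERF2, MTERF3 and MTERF4 and the deacetylases SIRT1 and SIRT3 did not pass, at 0.18 to 0.53.

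Among the activators of these genes, 9 were tested: none rose, NRF1 and GABPA fell and 7 did not pass. NRF1, whose core letters are shown in the promoters above, fell to 21.8, 26.4 and 29.7 TPM in binding replicates 1 to 3, against 39.9, 40.2 and 42.6 TPM in non-binding replicates 1 to 3. All binding libraries lay below all non-binding ones. The log2 change was -0.65 (SE 0.16; limma, Benjamini-Hochberg adjusted p = 0.0269). Quantile normalization gave -0.93, the common median -0.96 and TPM rescaled without the mitochondrial genome -0.54, and NRF1 passed in each. It no longer passed without binding replicate 2 or any 1 of the non-binding libraries (limma, Benjamini-Hochberg adjusted p = 0.0552 to 0.0855), with log2 changes of -0.66 to -0.62.

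GABPA, an ETS family subunit of nuclear respiratory factor 2, fell to 21.2, 25.1 and 25.6 TPM in binding replicates 1 to 3, against 35.2, 32.0 and 35.3 TPM in non-binding replicates 1 to 3. The log2 change was -0.50 (SE 0.15; limma, Benjamini-Hochberg adjusted p = 0.0432), and no leave-one-out fit kept the call, whichever of the 6 libraries was dropped. GABPA reached -0.81 under a common median and -0.80 under quantile normalization and passed in these, but not with TPM rescaled without the mitochondrial genome (-0.39; limma, Benjamini-Hochberg adjusted p = 0.0764). YY1, at 289 ± 85.8 TPM in the binding and 453 ± 19.4 TPM in non-binding cells (SD, n = 3 each), did not pass (log2 change -0.69; limma, Benjamini-Hochberg adjusted p = 0.0509). SP1, GABPB1, GABPB2, ESRRA, PPRC1 and PPARGC1B did not pass either, with log2 changes of -0.36 (SP1) to 0.38 (PPARGC1B). The coactivator PPARGC1A averaged 0.685 TPM in the binding and 0.472 TPM in non-binding cells and was below the filter. Epidermal marker sums were also lower in binding libraries, as given above, and their part in these falls was not tested.

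The protein-coding genes with a mean of at least 10 TPM whose profile over the 6 libraries lay nearest that of TFAM were CD2BP2, PNP, HAGH, PEX19 and MLST8. Likeness was the Euclidean distance between centred log2(TPM + 1) profiles, 0.136 to 0.185 for these genes against a median of 0.847 over 6921 candidates. Among those nearest POLRMT were SSR2, HAUS4, EXT2 and RASSF3, at distances of 0.0797 to 0.153 against a median of 0.721. None of the 10 factors was among them, but POLG2, TEFM and TFB1M averaged under 10 TPM over the 6 libraries and were not candidates.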

How the data were processed

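The authors' deposited table holds TPM for 58051 Ensembl genes in 6 libraries, identified as such from the values, each column having the same sum, as TPM do. Per the submitters' processing notes, reads were placed on hg38. Aligner, quantification tool, annotation, strand handling and filters: not given in the sources used here. Columns were matched to samples by the names in the labels.

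The 15574 genes reaching 1 TPM in 3 or more libraries were tested on log2(TPM + 1) in limma 3.58.1 (R 4.3.3; intensity trend, no covariates), calling Benjamini-Hochberg adjusted p under 0.05. Fold changes on that scale understate those of low genes. Single values were compared with exact two-sided permutation tests. The code was tested on simulated data. Positions and exon overlaps came from GENCODE 29, copies from BLAST 2.17.0 and promoters from RefSeq (GRCh38.p14), in which all 10 genes matched. Of 83 pathway genes, 80 matched by symbol and 3 through reference tables.

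The genes, lists, named genes and tests were chosen with earlier results of these data known. Named were the 10 factors, preset mitochondrial RNAs, all members of lists of at most 12 genes and the 4 smallest p of longer ones, and the 5 most similar profiles; others were chosen after their values were seen. Some genes that this rule names are not reported here. Alternatives were other pseudocounts, filters, scalings, no trend, a replicate block and leaving out each library.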

Additional observations from a re-analysis of the deposited data

How the results depend on the processing

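Of the 10 factors, 3 were called higher with the chosen settings. That count was 5 with a filter of 5 TPM, 5 with TPM rescaled without the mitochondrial genome, and 1 under quantile normalization or a common median. It was 2 without a filter and 2 without an intensity trend, where LRPPRC no longer passed (limma, Benjamini-Hochberg adjusted p = 0.0652 and 0.0607). The count ranged from 0 to 3 when single libraries were left out. None was called lower under any of these settings. The 4156 calls over all genes became 1873 without a filter, 2443 with quantile normalization and 2559 without an intensity trend, and 64 to 2863 when single libraries were left out. Calls that were higher made up 73.3% of all calls, 49.0% under quantile normalization, 33.7% under a common median, 84.6% after the rescaling and 90.6% without non-binding replicate 3. The median log2 change of all tested genes was 0.36, against 0.11 under quantile normalization and 0.04 under a common median.

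Changes of sign were confined, in the settings run, to POLG and TEFM, neither of which passed in any of them. POLG came to -0.18 under quantile normalization and -0.19 under a common median, TEFM to -0.046 and -0.10. Leaving out single libraries gave TEFM -0.014 (without binding replicate 1) to 0.45, with -0.0047 without non-binding replicate 2. The common median took the same amount from every log2 change, and POLG and TEFM had the smallest changes among the factors. The cause of the other sign changes was not tested. The summed mitochondrial transcripts differed by 1.68 to 1.79 on the log2 scale when single libraries were left out.

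Whether the replicate numbers pair the libraries is not stated. Deviations of same-numbered libraries correlated at 0.0349, -0.0167 and 0.0284 across genes, against -0.0738 to 0.0618 for differently numbered ones. These correlations do not decide whether cultures or sorts were shared. With the replicate block, 6 of the 10 factors passed, adding TFAM, TFB2M and SLIRP, where 20.4% of all genes were called higher, and GABPA no longer did (limma, Benjamini-Hochberg adjusted p = 0.0579). Since TPM keep no depth, the part of counting error in scarce genes such as TEFM and POLG2 is unknown.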
